A study of Mus musculus with 6 samples.

Results

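Small RNA was measured in vesicles shed by apoptotic osteoblasts, and the entries described here are the mature miRNAs of 5 hairpins that lie at imprinted loci: miR-335 at Mest, miR-296 and miR-298 at the Gnas locus, miR-675 at H19 and miR-483 at Igf2. They were chosen by name, with any arm suffix, and 9 entries of the 1712 in the table matched. Osteoblasts, the bone-forming cells, were driven into apoptosis and kept in serum-free medium for 48 h, and the vesicles were pelleted from the cleared supernatant at 100000 g. The control group was SIRT6f/f mice, which carry floxed Sirt6 alleles and no Cre (n = 3 libraries), and the other group was Prx1cre;SIRT6f/f mice (n = 3 libraries, called knockout), so both groups carry the floxed alleles. Sirt6 is a nuclear deacetylase, and the Prx1 enhancer drives Cre in the limb mesenchyme lineage. Age, the inducer of apoptosis, and whether libraries came from separate animals are not stated by the labels, so p-values measure only the spread between these libraries. A small RNA table holds no mRNA, so the loss of Sirt6 was not checked.

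Imprinted genes are expressed mainly from the maternal or the paternal copy. Mest and Igf2 are paternally expressed, and H19 is a maternally expressed long non-coding RNA that is the precursor of miR-675. A miRNA hairpin yields a 5p and a 3p arm, and usually one of them is kept as the guide, which finds its target mRNAs mainly through the seed, bases 2 to 8. Igf2 and H19 are active in fetal and mesenchymal tissue, and miR-335 is known from mesenchymal stromal cells. The numbers below are levels in vesicles, as RPM, in which the entries of each library add up to 1000000. Fewer vesicles of one kind and less RNA per vesicle cannot be told apart in such data.

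The mature sequences are shown first because the 2 arms of a hairpin are separate molecules with separate seeds. All 9 listed entries were found by name among the RefSeq sequences (GRCm38.p6). The seed is in capitals, and the prefix mmu-, for mouse, is left out in the rest of the text.
mmu-miR-335-5p: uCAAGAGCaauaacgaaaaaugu
mmu-miR-335-3p: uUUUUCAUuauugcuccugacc
mmu-miR-296-5p: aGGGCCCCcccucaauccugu
mmu-miR-296-3p: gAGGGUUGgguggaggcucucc
mmu-miR-298-5p: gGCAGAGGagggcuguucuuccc
mmu-miR-298-3p: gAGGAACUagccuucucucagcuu
mmu-miR-483-5p: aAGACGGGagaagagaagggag
mmu-miR-483-3p: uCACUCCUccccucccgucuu
mmu-miR-675-5p: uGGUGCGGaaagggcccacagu

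No seed was shared between these entries, and 0 other mature sequences of the RefSeq table carried any of the 9 seeds. Base composition separated miR-335 from the rest. G and C made up 30.4% of miR-335-5p and 36.4% of miR-335-3p, against 65.2% of miR-298-5p and 68.2% of miR-296-3p. The median over the 802 tested entries with a RefSeq sequence was 54.4%. The seed of miR-335-3p held 1 G or C in 7 bases, and that of miR-296-5p held 7.

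The hairpins below, with both mature arms in capitals, are the 3 that gave the abundant entries.
miR-335: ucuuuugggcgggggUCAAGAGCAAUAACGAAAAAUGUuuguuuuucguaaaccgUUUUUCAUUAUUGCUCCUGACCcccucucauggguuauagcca
miR-296: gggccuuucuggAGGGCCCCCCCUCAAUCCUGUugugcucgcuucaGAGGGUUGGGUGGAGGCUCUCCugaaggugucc
miR-298: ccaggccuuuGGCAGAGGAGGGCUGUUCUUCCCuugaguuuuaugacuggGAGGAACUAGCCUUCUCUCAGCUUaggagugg

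On GRCm38 the miR-335 hairpin lies at chr6:30741299-30741396 on the plus strand, within an intron of Mest in GENCODE M21. The miR-296 hairpin (chr2:174267047-174267125) and the miR-298 hairpin (chr2:174267504-174267585) lie on the minus strand with 378 bases between them. No annotated gene other than the miRNAs covers them, and the nearest gene on their strand is Nespas, the antisense transcript of the Gnas locus, whose end is 13652 bases from miR-298 and 14112 bases from miR-296. The miR-675 hairpin (chr7:142577064-142577147, minus strand) lies inside an exon of H19. The miR-483 hairpin (chr7:142654924-142654996, minus strand) lies within an intron of Igf2, and of the overlapping gene model Gm49394, 77776 bases from that of miR-675.

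The groups differed in library composition, which bears on every RPM value. Entries with a mouse miRNA name, apart from miR-6236, miR-6238, miR-6239, miR-6240 and miR-3968, which were set apart as possible fragments of other RNAs, are called ordinary miRNAs. They took 48.0% to 53.0% of reads across control and 30.1% to 40.8% across knockout libraries, with the lowest share in knockout replicate 3. Mesenchymal markers (miR-199a, miR-199b, miR-214, miR-143 and miR-145a, 9 entries) summed to 79588 to 87876 RPM across control and 29683 to 60935 RPM across knockout libraries. Markers of other cells summed to less. The blood cell list had 263 to 895 RPM over the 6 libraries. Its miR-486b-5p averaged 570 ± 130 RPM (control) and 282 ± 81.7 RPM (knockout), above the mean of each of the 9 entries described here. The endothelial list summed to 23.4 to 105.03 RPM, the muscle list to 116 to 149 RPM and the epithelial list to 18.5 to 34.8 RPM. The neural list summed to 4.35 to 35.5 RPM and the liver list to 3.26 to 19.0 RPM. The cartilage list, both arms of miR-140, summed to 2937 to 8631 RPM. Of the tested markers, 4 of 9 mesenchymal and 2 of 8 blood cell entries were lower by limma and none was higher. Among all tested entries 2.69% were lower and 2.15% higher, and among the 269 tested ordinary miRNAs averaging 10 RPM or more 28 were lower and 10 higher. No entry of the other marker lists passed. The mesenchymal, cartilage, blood cell, endothelial and liver sums did not overlap between the groups and were lower in the knockout. So were the 4 abundant entries described below, and 43.5% of all tested entries averaging 10 RPM or more. The part of library composition and of these markers in the results was not tested beyond the rescalings given.

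Of the 9 entries, 4 carried nearly the whole signal: miR-298-5p, miR-335-3p, miR-296-3p and miR-335-5p made up 96.9% to 99.3% of the summed RPM of the group. They ranked 84, 89, 93 and 130 by mean RPM among the 1528 entries with a miRNA name. All 4 were lower in every knockout library than in any control library, as were 43.5% of tested entries averaging 10 RPM or more. The summed RPM of the 9 entries averaged 1129 ± 90.5 across control and 624 ± 159 across knockout libraries (SD, n = 3 each), a ratio of 0.553 (exact 2-sided permutation p = 0.1, which is the lowest p possible with 3 against 3).

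miR-335-3p, one arm of the Mest hairpin, had 373, 310 and 305 RPM in control replicates 1, 2 and 3 and 179, 185 and 121.9 RPM in knockout replicates 1, 2 and 3. The groups did not overlap, and the lowest control library stood well above the highest knockout library. The level fell by 50.8%, from 329.4 ± 38.3 to 162 ± 34.96 RPM (n = 3 each). The log2 fold change was -1.04 with an SE of 0.30 (limma adjusted p = 0.0224 over 1114 tested entries). Limma is a linear model fitted to all entries, here to log2(RPM + 1), with p-values adjusted by Benjamini-Hochberg and a threshold of 0.05. The fit takes part of its spread from entries of like abundance, and without that mean-variance trend the adjusted p was 0.395. The call also did not hold without control replicate 1 (limma adjusted p = 0.226), control replicate 2 (0.172), control replicate 3 (0.305), knockout replicate 1 (0.0641) or knockout replicate 2 (0.0540).

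The partner arm miR-335-5p had 126.2, 124.3 and 100.8 RPM in the control libraries and 62.8, 86.4 and 71.8 RPM in the knockout libraries. The groups did not overlap, although control replicate 3 and knockout replicate 2 lay close to each other. The means were 117 ± 14.2 and 73.7 ± 11.9 RPM. The log2 fold change was -0.67 with an SE of 0.33 (limma adjusted p = 0.233), so the difference did not pass the threshold.

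miR-296-3p, from the Gnas locus, had 293, 275 and 281 RPM in the control libraries and 204, 196 and 64.7 RPM in the knockout libraries. Control libraries lay close together, and knockout replicate 3 was far below the other two knockout libraries. The level fell by 45.2%, from 283 ± 8.98 to 155 ± 78.2 RPM. The log2 fold change was -1.04 with an SE of 0.30 (limma adjusted p = 0.0238). Without knockout replicate 3 the log2 fold change was -0.50 (limma adjusted p = 0.116), and with no mean-variance trend the adjusted p was 0.436 with all libraries. The limma adjusted p was 0.182 without control replicate 1, 0.217 without control replicate 2, 0.369 without control replicate 3 and 0.0680 without knockout replicate 2. The spread of this entry within groups was 0.66 on the log2 scale, against 0.26 for miR-335-3p.

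miR-298-5p, from the neighbouring hairpin, was the most abundant of the 9 entries, with 422, 374 and 357 RPM in control and 259, 241 and 169 RPM in knockout libraries. The groups did not overlap, and knockout replicate 3 was again the lowest. The means were 384 ± 33.7 and 223.02 ± 47.4 RPM. The log2 fold change was -0.80 with an SE of 0.30 (limma adjusted p = 0.0850), which did not pass the threshold. In each library miR-298-5p was above miR-335-3p (ratio of miR-335-3p to miR-298-5p 0.692 to 0.885), although their ranges overlapped in both groups. The ranges of miR-335-3p and miR-296-3p overlapped in the knockout but not in the control group. miR-335-5p was the lowest of the 4 in every library but knockout replicate 3, where miR-296-3p was lower.

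**Figure D1:**
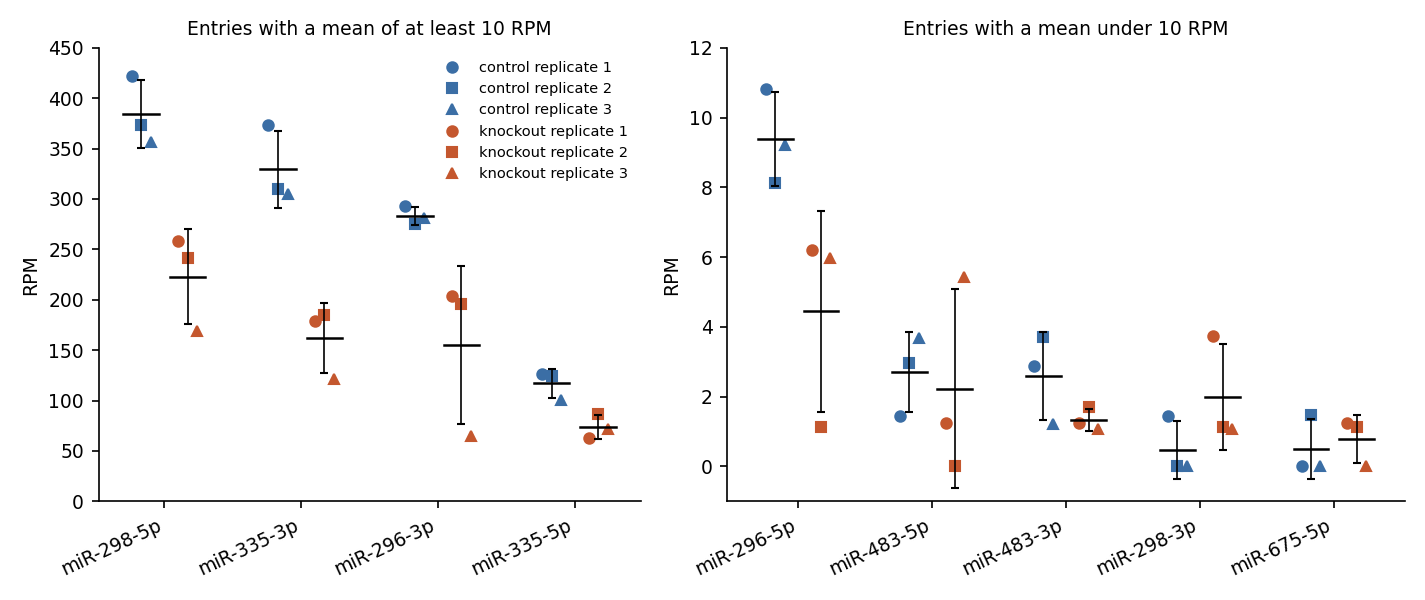
RPM of the 9 entries in each library, with control libraries in blue, knockout libraries in orange, a marker shape for each replicate, lines for means and bars for SD (n = 3). In the left panel all knockout points lie below all control points of the same entry, and miR-296-3p of knockout replicate 3 (64.7 RPM) lies apart; the right panel holds entries under 12 RPM.

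The other 5 entries were rare, in libraries whose lowest non-zero values were 1.09 to 1.48 RPM. miR-296-5p had 10.8, 8.14 and 9.22 RPM in control and 6.22, 1.13 and 5.98 RPM in knockout libraries, with no overlap (log2 fold change of -1.12 with an SE of 0.61, limma adjusted p = 0.279). The difference did not pass the threshold, and the log2 fold change was -0.54 without knockout replicate 2 and -0.66 with a pseudocount of 5. miR-483-5p was listed in 5 libraries and miR-483-3p in 6, all at or under 5.44 RPM. For miR-483-5p the means were 2.70 ± 1.14 RPM (control) and 2.23 ± 2.85 RPM (knockout). For miR-483-3p they were 2.60 ± 1.26 and 1.34 ± 0.315 RPM. Both arms overlapped between the groups (limma adjusted p = 0.735 and 0.731), so the miRNA of the Igf2 intron was barely detected in either genotype.

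miR-675-5p, cut from H19 RNA, was listed in 3 of 6 libraries, each time at the lowest non-zero value of its library: 1.48 RPM in control replicate 2, 1.24 RPM in knockout replicate 1 and 1.13 RPM in knockout replicate 2. The remaining 3 libraries list it at 0. Its partner miR-675-3p was not analysed here. miR-298-3p was listed in 1 control library, at 1.44 RPM, and in all 3 knockout libraries, at 3.73, 1.13 and 1.09 RPM (limma adjusted p = 0.486). At this depth neither entry gives a difference between the groups.

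All 9 entries passed the filter of at least 1 RPM in at least 3 libraries, miR-675-5p with exactly 3. Of them, 2 were lower and 0 higher by limma, where 2.69% of all 1114 tested entries were lower and 2.15% higher. Both were abundant, and of the 269 tested ordinary miRNAs averaging 10 RPM or more 28 were lower and 10 higher. Groups did not overlap, with the knockout lower, for 5 of the 9 entries, against 19.3% of all tested entries. With the knockout higher it was 0 of the 9, against 6.28%. Among tested entries averaging 10 RPM or more the share lower without overlap was 43.5%, and all 4 of the abundant entries belong to it. The median log2 fold change was -0.67 for the 9 entries and -0.92 for the 4 abundant ones. It was -0.27 over all tested entries and -0.59 over the 269 tested ordinary miRNAs averaging 10 RPM or more. Of these 269 miRNAs, 12.3% had a lower log2 fold change than miR-335-3p, 12.6% than miR-296-3p, 29.7% than miR-298-5p and 44.2% than miR-335-5p. With all libraries, the falls of miR-335-3p and miR-296-3p were thus among the larger ones of abundant miRNAs, while miR-335-5p lay near the middle. Without knockout replicate 3 the log2 fold change of miR-296-3p was only -0.50, and that of miR-335-3p was -0.84. Ranks among abundant miRNAs were not taken again without that library.

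**Figure D2:**
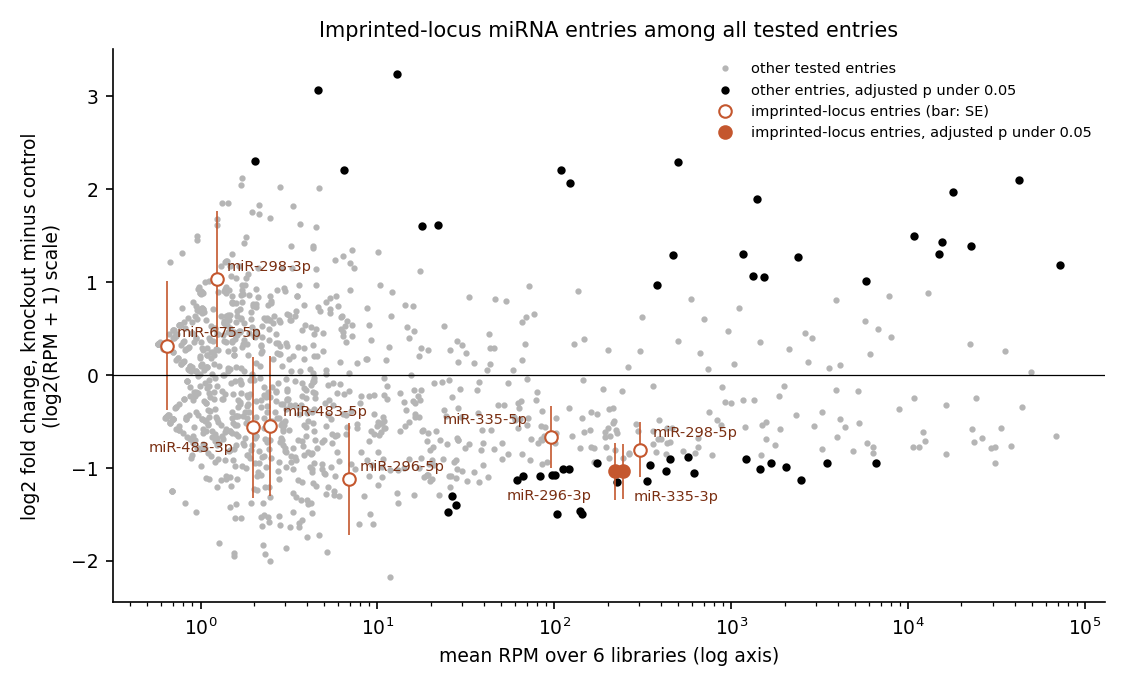
Log2 fold change (knockout minus control, log2(RPM + 1) scale) against mean RPM on a log axis for the 1114 tested entries, with the 9 imprinted-locus entries in orange, bars for their SE, and filled points for an adjusted p under 0.05. miR-335-3p and miR-296-3p are filled, at -1.04 each, and the 4 abundant entries lie below 0 between about 95.4 and 304 mean RPM, where most other entries also lie below 0.

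Because RPM values of a library share one total, the 4 abundant entries were also set against miRNAs only. Relative to ordinary miRNAs, that is with RPM counted over ordinary miRNAs alone, miR-335-3p had 704, 645 and 632 RPM in control and 470, 454 and 405 RPM in knockout libraries. The groups stayed apart, and knockout replicate 3 remained the lowest. The log2 fold change was -0.58 ± 0.17 SE, and the limma adjusted p was 0.113. The same rescaling gave -0.58 for miR-296-3p (limma adjusted p = 0.400), -0.34 for miR-298-5p (0.397) and -0.21 for miR-335-5p (0.702, also limma adjusted p), whose groups then overlapped. Groups did not overlap, with the knockout lower, for 3 of the 9 entries, beside 8.71% of all tested entries. With the knockout higher it was 1 of the 9, the rare miR-298-3p, beside 14.4%. By limma the same scaling called 0.0898% of all entries lower, none of them among the 9. The median of all tested entries moved from -0.27 to 0.07, and limma calls went from 24 higher and 30 lower to 34 higher and 1 lower. With scaling to all entries with a miRNA name, miR-335-3p was at -0.76 (limma adjusted p = 0.0414).

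**Figure D3:**
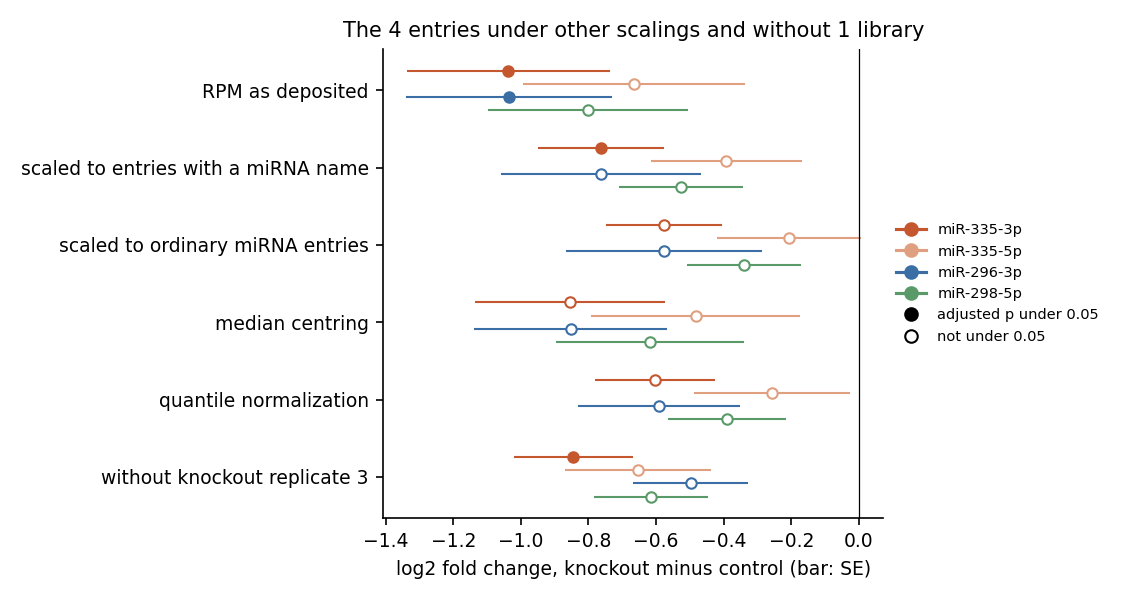
Log2 fold change with SE (knockout minus control) of the 4 abundant entries under the deposited RPM, 4 other scalings and with knockout replicate 3 left out; filled points have a limma adjusted p under 0.05. All points lie below 0, miR-335-3p is filled in 3 settings, and miR-296-3p only with the deposited RPM.

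Ratios between entries of the same library do not depend on scaling by 1 factor per library, and all 6 pairs of the 4 abundant entries were compared. The ratio of miR-335-3p to miR-298-5p was 0.885, 0.830 and 0.854 in control and 0.692, 0.768 and 0.720 in knockout libraries. It was the only one of the 6 ratios without overlap between the groups, with means of 0.856 ± 0.0280 and 0.727 ± 0.0384 (exact 2-sided permutation p = 0.1, adjusted p = 0.6 over 6 pairs). The neighbours miR-296-3p and miR-298-5p, which lie 378 bases apart, had a ratio of 0.694 to 0.787 in the control libraries and of 0.788, 0.813 and 0.383 in the knockout libraries. Knockout replicate 3 alone was low in that ratio (exact 2-sided permutation p = 1). Relative to miR-298-5p, miR-335-5p had 0.282 to 0.333 in control and 0.243 to 0.424 in knockout libraries (exact 2-sided permutation p = 0.6).

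The 3p arm of miR-335 exceeded the 5p arm in every library. Its share of both arms was 74.7%, 71.4% and 75.2% in control and 74.0%, 68.2% and 62.9% in knockout libraries. Knockout replicate 1 lay within the control range, and the other two lay below it. The 3p arm was thus 2.49 to 3.02 times as high as the 5p arm in control and 1.70 to 2.85 times as high in knockout libraries. The log2 ratio of 5p to 3p differed by 0.37 ± 0.33 SE (limma adjusted p = 0.733 over all hairpins with both arms tested, exact permutation p = 0.2), so the fall of one arm was not shown to differ from that of the other.

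The Gnas-locus hairpins each had 1 dominant arm, on opposite sides. The 3p arm of miR-296 took 96.4% to 97.1% in control and 91.5% to 99.4% in knockout libraries, whereas miR-298 gave 99.9% ± 0.197 and 99.2% ± 0.509 of its reads as the 5p arm (SD, n = 3 each). Its log2 ratio of 5p to 3p differed by -1.84 ± 0.53 SE, with no overlap (limma adjusted p = 0.181, exact permutation p = 0.1), and rests on a 3p arm at or near the lowest value. miR-483 was too rare for a share. By limma 0% of all hairpins with both arms tested had a changed arm ratio (23 at an unadjusted p under 0.05), and 0 of the 4 hairpins here. By mean RPM, 55.6% of those hairpins had more 3p than 5p, and 29.9% had a higher 3p share than miR-335.

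**Figure D4:**
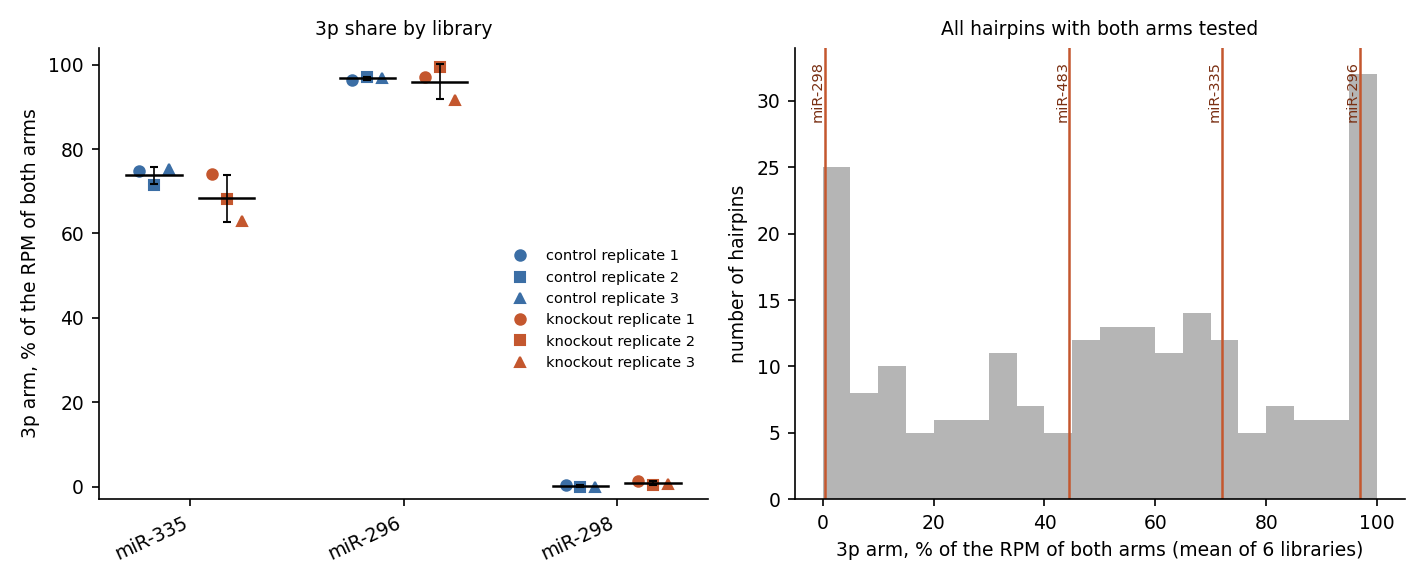
Left, share of the 3p arm in the RPM of both arms (%) for miR-335, miR-296 and miR-298 in each library, with means and SD (n = 3); right, the same share by mean RPM for all hairpins with both arms tested, with lines at the imprinted-locus hairpins. miR-296 and miR-298 sit near the 2 ends of the distribution, and miR-335 at 72.0% lies between them.

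For each abundant entry the 3 named entries with the most similar profile were taken by Pearson's r of log2(RPM + 1) over the 6 libraries, out of 270 other named entries averaging 10 RPM or more. The libraries fall into 2 groups and share their totals, so r can follow the difference between groups and is a description only. For miR-296-3p it also follows the low knockout replicate 3 (64.7 RPM, against 204 and 196 RPM in the other knockout libraries). The nearest to miR-335-3p were miR-181b-5p (r = 0.996), miR-3968 (0.992), one of the entries set apart above as possible fragments of other RNAs, and miR-191-5p (0.988). miR-335-5p had lower values, with miR-1839-5p (r = 0.954), miR-30c-5p (0.942) and miR-126a-5p (0.929). miR-296-3p was nearest to miR-466p-3p (r = 0.997), miR-152-3p (0.996) and miR-652-3p (0.994), and miR-298-5p to miR-3102-3p (r = 0.994), miR-181b-5p (0.993) and miR-455-3p (0.991). miR-181b-5p thus stood near both miR-335-3p and miR-298-5p, with 473 ± 53.9 RPM (control) and 293 ± 44.9 RPM (knockout) (limma adjusted p = 0.139).

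Larger miRNA clusters at other imprinted loci were counted the same way, beside 2.15% higher and 2.69% lower among all tested entries. At Dlk1-Dio3, 44 of 81 listed entries were tested, 4 were higher and 1 was lower by limma, and the median log2 fold change was -0.30. In the Sfmbt2 cluster, 26 of 45 were tested, 0 were higher and 1 was lower, with a median of -0.61. In Dlk1-Dio3, miR-494-3p rose by 1.89 on the log2 scale and miR-127-3p fell by 1.46. In Sfmbt2, miR-467a-5p fell by 1.07 (limma adjusted p = 0.0330), and the most abundant entry, miR-297b-5p, had a log2 fold change of 0.82 (limma adjusted p = 0.0706) and did not pass. No abundant entry of the Mest and Gnas hairpins rose.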

How the data were processed

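Small RNA libraries of 6 vesicle samples were analysed, 3 per genotype. The authors deposited 1 table of RPM values. The tools fastp and edgeR are named, without role or version, per the submitters' processing notes. The aligner, miRNA annotation and build were not given in the sources used here. The values of each library add up to 1000000. They come in steps of 0.5 of a library's lowest non-zero value (tolerance 0.001), and no entry was at 1 step. If a step is 1 read, the depth was 1352045 to 1838239 reads and miR-335-3p rests on 224 to 518 of them; because of the missing lowest step, no count test was run.

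Entries with at least 1 RPM in at least 3 libraries (1114) were tested with limma 3.58.1 in R 4.3.3 on log2(RPM + 1) with a mean-variance trend, 2-sided, Benjamini-Hochberg adjusted p under 0.05. Fold changes on this scale understate changes of low entries. Arm ratios were fitted as log2((5p RPM + 1)/(3p RPM + 1)) over all hairpins with both arms past that filter. Exact permutation tests (scipy 1.17.1) compared single values. Functions were tested on simulated data in which changed entries rose and fell in equal number. A shift in library composition was not simulated. Named entries were the 9 entries, the 3 most similar to each abundant one, and the most abundant of each list; members, lists and tests were chosen with earlier results of these data known, and the pair ratios after their values were seen. Alternatives were other pseudocounts, filters, scalings and priors, a replicate block and leaving out each library.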

Additional observations from a re-analysis of the deposited data

How the results depend on the processing

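The direction of miR-335-3p, miR-335-5p, miR-296-3p, miR-296-5p, miR-298-5p and miR-483-3p stayed negative in every setting run. The call of miR-335-3p was lost with scaling to ordinary miRNAs (-0.58), median centring (-0.85), quantile normalization (-0.60) and no mean-variance trend (-1.04), and when any 1 library other than knockout replicate 3 was left out (-1.15 to -0.94, limma adjusted p from 0.0540 to 0.305); without knockout replicate 3 it held at -0.84 (limma adjusted p = 0.00685). That of miR-296-3p was lost with a pseudocount of 0.5 (-1.04, limma adjusted p = 0.0511), scaling to named entries (-0.76) or ordinary miRNAs (-0.58), median centring (-0.85), quantile normalization (-0.59), no trend (-1.04) and when any 1 library other than knockout replicate 1 was left out (-1.29 to -0.50); without knockout replicate 1 it held at -1.32 (limma adjusted p = 0.0381). miR-298-5p passed with a filter of a mean of 10 RPM (-0.80, limma adjusted p = 0.0393). Without single libraries miR-483-5p ranged from -1.25 to 0.093, the last without knockout replicate 2. The arm ratio of miR-335 differed by 0.19 to 0.56 with a library left out; that of miR-296 turned to 0.35 with a pseudocount of 5 and ranged from -0.90 to 0.75 without single libraries, and that of miR-483 turned to -0.14 with a pseudocount of 0.5 and ranged from -0.77 to 0.76. Changed arm ratios numbered 4 with a pseudocount of 5, 1 with a robust prior and 2 of 36 hairpins with both arms at 10 RPM, against 0. The log2 ratio of the summed RPM was -0.42 relative to ordinary miRNAs.

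Entries lower in the knockout numbered 15 with a pseudocount of 0.5, 15 with no filter, 71 with a mean of 10 RPM, 5 with scaling to named entries, 1 to ordinary miRNAs, 8 with median centring, 16 with quantile normalization, 17 with a robust prior and 0 with no trend (75 at an unadjusted p under 0.05), against 30. Entries higher numbered 0 with no trend (55 unadjusted), against 24. With a library left out, limma called 0 to 26 higher and 0 to 18 lower; 0 in both directions came without control replicate 3 (53 and 84 unadjusted), and 6 and 0 without control replicate 2 (5.57% and 11.5% of entries unadjusted). With the replicate number as a block, 19 were higher and 11 lower. In that fit miR-296-3p was at -1.04 with a limma adjusted p = 0.0535, and miR-335-3p kept its call (limma adjusted p = 0.0491). Deviations of same-numbered libraries were not correlated over the tested entries (r of 0.01, -0.02 and 0.01). Most of these entries are rare, so this r cannot exclude a shared preparation, and the labels do not say how replicates were numbered. The planned edgeR test was not run, since whole reads could not be recovered with certainty. Depth limits miR-675-5p, miR-298-3p and both arms of miR-483.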
